A study of Danio rerio with 9 samples.

Results

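Interferon-stimulated genes were followed in whole zebrafish larvae (Danio rerio) that lack fam177a1a alone or both fam177a1a and fam177a1b. They were chosen by name, as 40 genes known to be switched on by interferon signalling, and the rule uses no value of these libraries, although earlier results of these data were known when it was set. Of the 40 names, 38 have a row among the 28802 rows of the deposited count table, and nmi and parp14rs1 have none under these names. Counts were high enough to test in 34 of the 38, and mxg, ifit9, ifit10 and socs1b fell below the filter. The double mutants were homozygous for the allele stl700 of fam177a1a and for the allele stl746 of fam177a1b. The single mutants were homozygous for stl700 alone, so both mutant genotypes carry it. The wild-type larvae have the name of the AB line in the table header, and the labels do not give the line background of the mutants. Each genotype has 3 libraries of total RNA, each from 7 larvae pooled at 8 days post fertilization. The human gene FAM177A1 is the counterpart of both and makes a protein found at the Golgi.

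Interferons are secreted proteins that cells release after they sense viral nucleic acids. They bind receptors whose attached kinases, of the JAK family, phosphorylate STAT proteins, and these join IRF9 to form a transcription factor that switches on the interferon-stimulated genes. Their products block steps of viral replication, make the cell more sensitive to viral RNA, or damp the pathway. Fish have type I interferons, named phi in zebrafish, and type II interferons, and several of these gene families, such as the Mx GTPases and the IFIT proteins, are larger in zebrafish than in mammals.

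Libraries held 17.0 to 19.3 M counts in double mutants, 17.2 to 18.3 M in single mutants and 18.3 to 24.7 M in wild type. Levels are given in CPM, counts per 1 M of the library's scaled total, where 3 counts equal 0.121 to 0.178 CPM depending on the library. Under the name fam177a1, the table has 15, 9 and 8 counts in double mutants, 8, 14 and 11 in single mutants and 669, 490 and 487 in wild type, and no row bears the name fam177a1a or fam177a1b. All 17 marker rows of liver, muscle, brain, eye, pancreas, skin, blood and cartilage averaged at least 10.3 CPM over the libraries. Single-mutant replicate 1 stood apart from the other single-mutant libraries, with a chi-square per degree of freedom of 18.4 and 21.5 against them, where the other pairs of one genotype gave 3.35 to 13.7. Whether a genotype's libraries are of different clutches is not stated in the labels, so p-values measure the spread between these libraries only.

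Most interferon-stimulated genes were higher in single mutants than in wild type, and in double mutants 26 of the 34 tested were not called against wild type. In single mutants against wild type, 20 of the 34 tested members rose and 2 fell, where 19.5% of all 21694 tested genes rose and 22.6% fell (edgeR's quasi-likelihood test, adjusted p under 0.05 over all tested genes). The median log2 fold change over the 34 members was 0.71, against −0.01 over all genes. In double mutants against wild type, 3 members rose and 5 fell, where 14.2% of all genes rose and 18.0% fell, and the median was 0.02 against −0.01 over all genes. Both comparisons share the wild-type libraries. Among the 20 that rose, mxb, ifit8 and cmpk2 reached the filter level of 0.548 CPM in all libraries of single mutants and of no other genotype. Ifit14, also among them, reached it in all mutant libraries and in no wild-type library. Mxb, ifit8 and ifit14 entered the test through groups where they are high. Cmpk2 reached the filter level in enough libraries of the other genotypes to enter without the single mutants. The counts and medians include all of these genes. Of the 34 members, 29 reached it in all libraries of all genotypes. These are bulk libraries of whole larvae, so fewer cells of a type and less RNA per cell cannot be told apart. The count of 20 lay between 16 and 23 when each library was left out in turn. The count of 2 that fell was 3 without single-mutant replicate 1 and 1 without single-mutant replicate 3, double-mutant replicate 3 or wild-type replicate 3, and 0 without any other library. In double mutants the count that rose was 6 without single-mutant replicate 1 and 5 without single-mutant replicate 2. The count that fell in double mutants was 2 without double-mutant replicate 3 or wild-type replicate 1 and 3 without double-mutant replicate 1 or wild-type replicate 2.

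Summed over the 38 rows, the members reached 452, 336 and 386 CPM in double mutants, 751, 567 and 723.5 CPM in single mutants and 346, 405 and 357 CPM in wild type. All single-mutant sums lay above all others, and those of double mutants and wild type overlapped. Taken as each library's median log2 difference from the wild-type mean over the 34 tested members, double mutants were at 0.12, −0.12 and −0.03, single mutants at 0.76, 0.62 and 0.93 and wild type at −0.10, 0.19 and −0.03. The 3 single-mutant libraries differed among themselves: over the 20 members that rose, replicate 2 was the lowest of the 3 libraries for 16, replicate 1 for 3 and replicate 3 for 1. Replicates 1 and 3 were highest for 10 and 9 of them. The library that stood apart over all genes, replicate 1, was therefore not the one with the low interferon-stimulated genes.

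**Figure D1:**
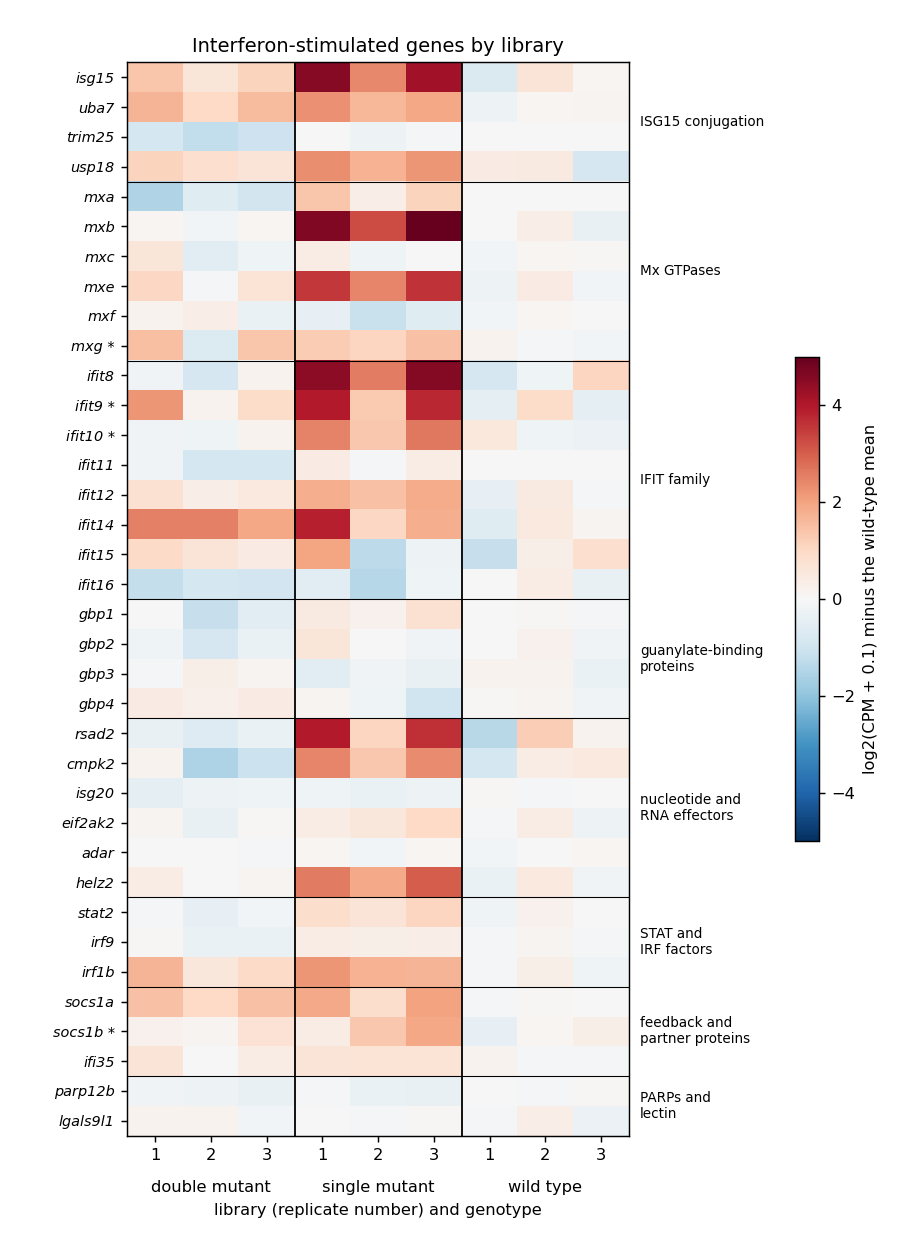
Heat map of log2(CPM + 0.1) minus the wild-type mean for 36 members (down the page, grouped by role) in the 9 libraries (across, double mutants, single mutants and wild type), with an asterisk on the members below the count filter. The single-mutant columns are raised for isg15, mxb, mxe, rsad2, helz2 and several ifit genes, and single-mutant replicate 2 is paler than replicates 1 and 3 for most of them.

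STAT proteins and IRF9 form the factor that carries the type I interferon signal to the genome, and IRF1 is a further factor that interferon switches on. Of the 5 tested STAT and IRF members 1 rose in double mutants, all 5 rose in single mutants, and 3 were lower in double mutants than in single mutants. Over all genes 14.2% rose in double mutants, 19.5% rose in single mutants and 1.0% were lower in double than in single mutants. Stat2 had 37.0, 29.3 and 35.6 CPM in double mutants, 71.9, 60.9 and 82.6 CPM in single mutants and 33.7, 44.8 and 38.61 CPM in wild type. Every single-mutant library lay above the 6 others, and double mutants and wild type overlapped. Its log2 fold change was −0.20 in double mutants against wild type (adjusted p = 0.270), 0.88 in single mutants against wild type (SE 0.13, adjusted p = 0.000157) and −1.08 in double against single mutants (SE 0.13, adjusted p = 0.000974).

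Irf9, the DNA-binding partner of the STAT proteins, had a smaller log2 fold change in single mutants than stat2. It had 17.3, 13.2 and 13.4 CPM in double mutants, 21.5, 20.3 and 21.4 CPM in single mutants and 16.003, 18.5 and 15.9 CPM in wild type. Single mutants were narrowly above all other libraries. It changed by 0.33 on the log2 scale in single mutants against wild type (SE 0.12, adjusted p = 0.0322) and −0.53 in double against single mutants (SE 0.12, adjusted p = 0.0332). The first had an adjusted p of 0.0511 without single-mutant replicate 3, 0.0730 without wild-type replicate 1 and 0.103 without wild-type replicate 3. The second gave 0.0663 without single-mutant replicate 2, 0.103 without single-mutant replicate 3, 0.175 and 0.156 without double-mutant replicates 2 and 3, and 0.0503 without wild-type replicate 3. With only the 6 mutant libraries fitted it gave 0.0843.

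Irf1b was high in both mutants. It had 87.1, 38.8 and 51.3 CPM in double mutants, 121, 88.7 and 85.3 CPM in single mutants and 24.9, 32.4 and 22.9 CPM in wild type. Both mutants lay above all wild-type libraries and overlapped each other. It rose by 1.15 on the log2 scale in double mutants (SE 0.33, adjusted p = 0.0394) and by 1.88 in single mutants (SE 0.33, adjusted p = 0.00445), with −0.74 between them (adjusted p = 0.296). The call in double mutants was lost without single-mutant replicate 2 or 3 (adjusted p = 0.0576 and 0.0556), double-mutant replicate 3 (0.0644) or wild-type replicate 1, 2 or 3 (0.109, 0.0569 and 0.111). It was also lost with only the 6 libraries compared (0.0776). In levels per kilobase of gene length, irf1b was the highest of the members in both mutants, at 20.04 CPM per kb in double mutants and 33.3 in single mutants, against 9.07 in wild type. In wild type isg20 (16.8 CPM per kb), trim25 (11.7) and irf9 (9.17) were among those above it.

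ISG15 is a ubiquitin-like protein that interferon induces and that enzymes attach to other proteins. In mammals UBA7 activates it, and USP18 removes it and also blocks the type I interferon receptor. Of these genes uba7 rose in double mutants, and isg15, uba7 and usp18 rose in single mutants. Isg15 had 4.09, 2.34 and 3.35 CPM in double mutants, 38.2, 8.47 and 29.5 CPM in single mutants and 0.887, 2.40 and 1.61 CPM in wild type. Single mutants lay above all other libraries, replicate 2 well below the other two, and wild-type replicate 2 was above the lowest double mutant. In log2 terms it stood at 1.03 in double mutants against wild type (adjusted p = 0.373), 3.9994 in single mutants against wild type (SE 0.68, adjusted p = 0.00388) and −2.96 in double against single mutants (SE 0.63, adjusted p = 0.0879). Without single-mutant replicate 2 the last had an adjusted p of 0.000286, and the difference of double mutants from wild type one of 0.0373. That difference from wild type also passed with only the 6 libraries compared (adjusted p = 0.0141). With DESeq2 the difference between the mutants had an adjusted p of 0.000244.

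Uba7 was high in both mutants, with 28.3, 17.2 and 26.1 CPM in double mutants, 42.5, 27.19 and 32.9 CPM in single mutants and 7.26, 9.22 and 9.59 CPM in wild type. All mutant libraries were above all wild-type libraries. It rose by 1.46 on the log2 scale in double mutants (adjusted p = 0.00115, SE 0.23) and by 1.98 in single mutants (adjusted p = 0.000122), and both calls held in all 17 alternative settings. Between the mutants uba7 stood at −0.52 (adjusted p = 0.241).

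Usp18 had 2.79, 2.28 and 1.99 CPM in double mutants, 6.64, 4.32 and 5.996 CPM in single mutants and 1.65, 1.71 and 0.643 CPM in wild type. The genotypes did not overlap, with single mutants highest and wild type lowest. It stood at 0.81 in double mutants (SE 0.31, adjusted p = 0.0584), rose by 2.08 in single mutants (SE 0.29, adjusted p = 5.50e-05) and was lower in double than in single mutants, at −1.27 (SE 0.28, adjusted p = 0.0289). The difference of double mutants from wild type passed the test in 6 of the 17 alternative settings. Among them were DESeq2 (adjusted p = 0.0379) and the fits without single-mutant replicate 1 (0.0371) or replicate 2 (0.0478). The difference between the mutants did not pass without single-mutant replicate 3 (adjusted p = 0.112) or without double-mutant replicate 1, 2 or 3 (0.0606, 0.145 and 0.151).

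Trim25, a ubiquitin ligase that in mammals acts on the RNA sensor RIG-I, was low in double mutants. It had 20.6, 16.02 and 18.4 CPM in double mutants, 38.2, 31.5 and 35.3 CPM in single mutants and 36.8, 38.4 and 38.0 CPM in wild type. The double mutants were below every other library, and single mutants and wild type overlapped. Its log2 fold change was −1.04 in double mutants against wild type (SE 0.10, adjusted p = 3.59e-06), −0.93 in double against single mutants (SE 0.10, adjusted p = 0.000174) and −0.11 in single mutants against wild type (adjusted p = 0.410). The calls in double mutants held in all 17 alternative settings.

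Mx proteins are dynamin-like GTPases that trap viral components. Of the 5 tested Mx genes, mxa, mxb and mxe rose in single mutants and mxf fell. The same 3 genes that rose were lower in double than in single mutants, and mxa was also below wild type there. Of all genes, 19.5% rose and 22.6% fell in single mutants, 18.0% fell in double mutants, and 1.0% were lower in double than in single mutants. Mxb had 0.475, 0.389 and 0.471 CPM in double mutants, 13.3, 5.03 and 18.6 CPM in single mutants and 0.443, 0.586 and 0.321 CPM in wild type. It was under 1 CPM in every library but the single mutants. The log2 fold change was 0.00 in double mutants against wild type (SE 0.74), 4.77 in single mutants against wild type (SE 0.54, adjusted p = 0.000178) and −4.77 in double against single mutants (SE 0.56, adjusted p = 0.00572). Without double-mutant replicate 2 the adjusted p between the mutants was 0.0574, and it was 0.0561 when only the 6 mutant libraries were fitted.

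Mxe had 2.43, 1.06 and 1.88 CPM in double mutants, 14.02, 6.63 and 14.8 CPM in single mutants and 0.927, 1.55 and 1.01 CPM in wild type. Again single mutants were above all other libraries with replicate 2 lowest. On the log2 scale the change was 0.64 in double mutants (adjusted p = 0.305), 3.37 in single mutants (SE 0.37, adjusted p = 6.31e-05) and −2.73 between double and single mutants (SE 0.36, adjusted p = 0.00521). The calls of mxe held in all 17 alternative settings.

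Mxa had 0.831, 1.61 and 1.31 CPM in double mutants, 6.81, 3.26 and 5.60 CPM in single mutants and 2.58, 2.56 and 2.48 CPM in wild type. The 3 genotypes did not overlap, with single mutants highest, wild type between and double mutants lowest. Mxa fell by 1.01 in double mutants (SE 0.30, adjusted p = 0.0174), rose by 1.04 in single mutants (SE 0.26, adjusted p = 0.00426) and differed by −2.05 between double and single mutants (SE 0.29, adjusted p = 0.00131). It was the member called in opposite directions in the mutants. The fall in double mutants had an adjusted p of 0.0933 and 0.0550 without double-mutant replicates 1 and 3 and of 0.0546 without wild-type replicate 1.

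Mxf had 2.67, 2.95 and 1.83 CPM in double mutants, 1.72, 1.01 and 1.48 CPM in single mutants and 2.10, 2.51 and 2.39 CPM in wild type. Single mutants were below all other libraries. It fell by 0.72 on the log2 scale in single mutants (SE 0.27, adjusted p = 0.0408), but that call was lost in 12 of the 17 alternative settings, with an adjusted p between 0.0502 and 0.196 in them. Between the mutants it stood at 0.81 (adjusted p = 0.139), and at 0.98 without single-mutant replicate 1 (adjusted p = 0.0323). Mxc had 12.3, 5.45 and 6.95 CPM in double mutants, 10.4, 6.87 and 7.94 CPM in single mutants and 7.30, 8.53 and 8.35 CPM in wild type, and all genotypes overlapped (log2 fold changes from −0.03 to 0.06). Mxc was the most abundant Mx gene in wild type, also per kilobase, at 3.31 CPM per kb, and mxb was at 0.197 CPM per kb there, among the lowest.

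The IFIT proteins are built of repeated helices and in mammals bind foreign RNA. Of 6 tested IFIT genes ifit11 and ifit16 fell in double mutants, ifit8, ifit12 and ifit14 rose in single mutants, and ifit8 and ifit12 were lower in double than in single mutants. Among all genes 18.0% fell in double mutants, 19.5% rose in single mutants and 1.0% were lower in double than in single mutants. Ifit8 had 1, 0 and 2 counts in double mutants, 68, 16 and 73 counts in single mutants and 0, 1 and 6 counts in wild type. Double mutants and wild type were near the limit of detection, so its size is best read from the summed counts. The ratio of single mutants to wild type was 28.3 (95% counting interval 13.4 to 71.4) and that of double to single mutants 0.0184 (0.00375 to 0.0547); these intervals cover counting error only. The fitted log2 fold change was 4.73 in single mutants (SE 0.79, adjusted p = 0.000747), with 4.12 without wild-type replicate 1 and 6.66 without wild-type replicate 3. Between double and single mutants it was −5.60 (SE 0.92, adjusted p = 0.0142), with adjusted p values of 0.0720, 0.0892 and 0.0688 without double-mutant replicates 1, 2 and 3, a value of −6.43 without the last of these, and an adjusted p of 0.0567 with limma-voom.

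Ifit12 had 2.55, 1.89 and 2.09 CPM in double mutants, 5.44, 4.26 and 5.65 CPM in single mutants and 1.09, 2.08 and 1.42 CPM in wild type. Single mutants stood above all other libraries, and double mutants overlapped wild type. It stood at 0.53 in double mutants (adjusted p = 0.136), rose by 1.76 in single mutants (SE 0.24, adjusted p = 4.38e-05) and was lower in double than in single mutants at −1.23 (SE 0.24, adjusted p = 0.0142). Without wild-type replicate 2 the double mutants stood at 0.80 against wild type (adjusted p = 0.0422). The difference between the mutants had an adjusted p of 0.0643 without single-mutant replicate 3, and of 0.0935 and 0.0743 without double-mutant replicates 2 and 3.

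Ifit14 rested on a single library for its size. It had 1.84, 1.84 and 1.203 CPM in double mutants, 4.98, 0.592 and 1.08 CPM in single mutants and 0.121, 0.373 and 0.275 CPM in wild type. All mutant libraries were above all wild-type libraries, and single-mutant replicate 1 was far above replicates 2 and 3. Its log2 fold change was 3.14 in single mutants (SE 0.88, adjusted p = 0.0202) and 1.74 without single-mutant replicate 1 (adjusted p = 0.0108), and the call was lost without wild-type replicate 1, 2 or 3 (adjusted p = 0.0767, 0.0501 and 0.0654). In double mutants it was 2.68 (SE 0.91, adjusted p = 0.0533), and this passed the test in 7 of the 17 alternative settings, among them without single-mutant replicate 2 (adjusted p = 0.00928) or 3 (0.0379). Ifit15 had the same split among single mutants, with 4.75, 3.73 and 3.19 CPM in double mutants, 9.61, 0.888 and 1.94 CPM in single mutants and 1.01, 2.93 and 4.36 CPM in wild type, and was not called in any comparison.

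Ifit16 had 1.07, 1.33 and 1.25 CPM in double mutants, 1.72, 0.888 and 2.17 CPM in single mutants and 2.499, 3.36 and 1.97 CPM in wild type. Double mutants lay below all wild-type libraries, and single mutants overlapped both. It fell by 1.08 in double mutants (SE 0.31, adjusted p = 0.0149), and stood at −0.70 in single mutants (adjusted p = 0.0762) and at −0.95 there without single-mutant replicate 3 (adjusted p = 0.0415). The fall in double mutants was not called without double-mutant replicate 1 or 3 (adjusted p = 0.0657 and 0.0511) or wild-type replicate 2 (0.0706). Ifit11 fell by 0.64 in double mutants (SE 0.24, adjusted p = 0.0492), at 1.61 to 2.67 CPM in double mutants, 2.84 to 4.12 CPM in single mutants and 3.02 to 3.12 CPM in wild type. That call was lost in 12 of 17 alternative settings (adjusted p from 0.0514 to 0.199). Its difference of −0.89 between the mutants (adjusted p = 0.0723) passed the test without single-mutant replicate 1 (adjusted p = 0.0416) or double-mutant replicate 1 (0.0395).

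The next group acts on nucleotides and RNA. Rsad2, or viperin, makes a nucleotide that ends viral RNA chains, Cmpk2 is a mitochondrial nucleotide kinase, Helz2 is a helicase, Isg20 is an exonuclease, Eif2ak2 is the kinase PKR that stops translation when it binds double-stranded RNA, and Adar edits double-stranded RNA. Of these 6, rsad2, cmpk2, helz2 and eif2ak2 rose in single mutants and isg20 fell. In double mutants isg20 fell and none rose (0 at an unadjusted p under 0.05 with edgeR, 0 with DESeq2 and 0 with limma-voom). Between double and single mutants, cmpk2 and helz2 were lower. Beside these, 19.5% of all genes rose and 22.6% fell in single mutants. In double mutants 18.0% fell, and 1.0% were lower in double than in single mutants.

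Helz2 had 5.04, 3.89 and 4.34 CPM in double mutants, 23.8, 14.9 and 32.9 CPM in single mutants and 3.10, 5.54 and 3.44 CPM in wild type. The single mutants were far above all other libraries, and the double mutants lay within the wild-type range. The log2 fold change stood at 0.15 in double mutants (adjusted p = 0.785), 2.59 in single mutants (SE 0.32, adjusted p = 0.000287) and −2.43 between double and single mutants (SE 0.32, adjusted p = 0.00994). Without double-mutant replicates 2 and 3 the last had adjusted p values of 0.0783 and 0.0580.

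Rsad2 had 0.771, 0.612 and 0.784 CPM in double mutants, 17.5, 2.25 and 14.1 CPM in single mutants and 0.322, 2.56 and 1.15 CPM in wild type. Single-mutant replicate 2 lay below wild-type replicate 2, and rsad2 and eif2ak2 were the 2 of the 20 members that rose whose single mutants overlapped wild type. The log2 fold change was 3.14 (SE 0.89, adjusted p = 0.0306), and 3.97 without wild-type replicate 2. The call was lost in 9 settings: without single-mutant replicate 1 or 3 (adjusted p = 0.0748 and 0.0786), without double-mutant replicate 1, 2 or 3 (0.0513, 0.0509 and 0.0515), without wild-type replicate 1 or 3 (0.0807 and 0.0889), with the replicate block (0.0968) and with the 6 libraries compared alone (0.0884). Between double and single mutants rsad2 stood at −3.96 (SE 0.9989, adjusted p = 0.128), with an adjusted p of 0.0167 without single-mutant replicate 2 and of 0.00129 with DESeq2.

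Cmpk2 had 0.771, 0.167 and 0.261 CPM in double mutants, 4.06, 1.84 and 3.83 CPM in single mutants and 0.322, 0.906 and 0.964 CPM in wild type. Single mutants were above all other libraries. Its log2 fold change was −0.86 in double mutants (adjusted p = 0.304), 2.17 in single mutants (SE 0.45, adjusted p = 0.00180) and −3.03 between double and single mutants (SE 0.51, adjusted p = 0.00994). The last was −3.89 without double-mutant replicate 1, and had adjusted p values of 0.0671 and 0.0704 without double-mutant replicates 2 and 3. Mxb, ifit8 and cmpk2 reached the filter level of 0.548 CPM in all libraries of the single mutants and of no other genotype. Mxb and ifit8 thus entered the test through the group where they are high. Cmpk2 also reached that level in double-mutant replicate 1 and wild-type replicates 2 and 3, enough to enter without the single mutants. Ifit14 reached the level in all mutant libraries and in no wild-type library.

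Eif2ak2 had 5.04, 3.50 and 4.76 CPM in double mutants, 5.95, 6.93 and 9.25 CPM in single mutants and 4.23, 6.02 and 3.81 CPM in wild type. Single-mutant replicate 1 lay just below wild-type replicate 2, and the other single mutants were above all other libraries. It rose by 0.66 in single mutants (SE 0.21, adjusted p = 0.0191) and stood at −0.73 between double and single mutants (adjusted p = 0.0989). The rise had adjusted p values of 0.0890 without single-mutant replicate 3, 0.0638 without wild-type replicate 1 and 0.0852 without wild-type replicate 3, and the difference between the mutants passed without single-mutant replicate 1 (adjusted p = 0.00602).

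Isg20 had 18.1, 21.1 and 21.8 CPM in double mutants, 22.1, 20.1 and 21.6 CPM in single mutants and 26.4, 24.7 and 25.5 CPM in wild type. All mutant libraries were below all wild-type libraries, by a small margin. It fell by 0.33 in double mutants (SE 0.10, adjusted p = 0.0156) and by 0.26 in single mutants (SE 0.10, adjusted p = 0.0368). The call in double mutants was lost without double-mutant replicate 1 (adjusted p = 0.122) or wild-type replicate 1 (0.0755), and that in single mutants in 13 of 17 alternative settings, with adjusted p values between 0.0503 and 0.196. Adar was not called in any comparison, at 38.3 ± 1.24 CPM in double mutants, 40.1 ± 3.49 CPM in single mutants and 39.7 ± 3.31 CPM in wild type (SD, n = 3 each), with log2 fold changes of −0.05 in double and 0.02 in single mutants against wild type.

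**Figure D2:**
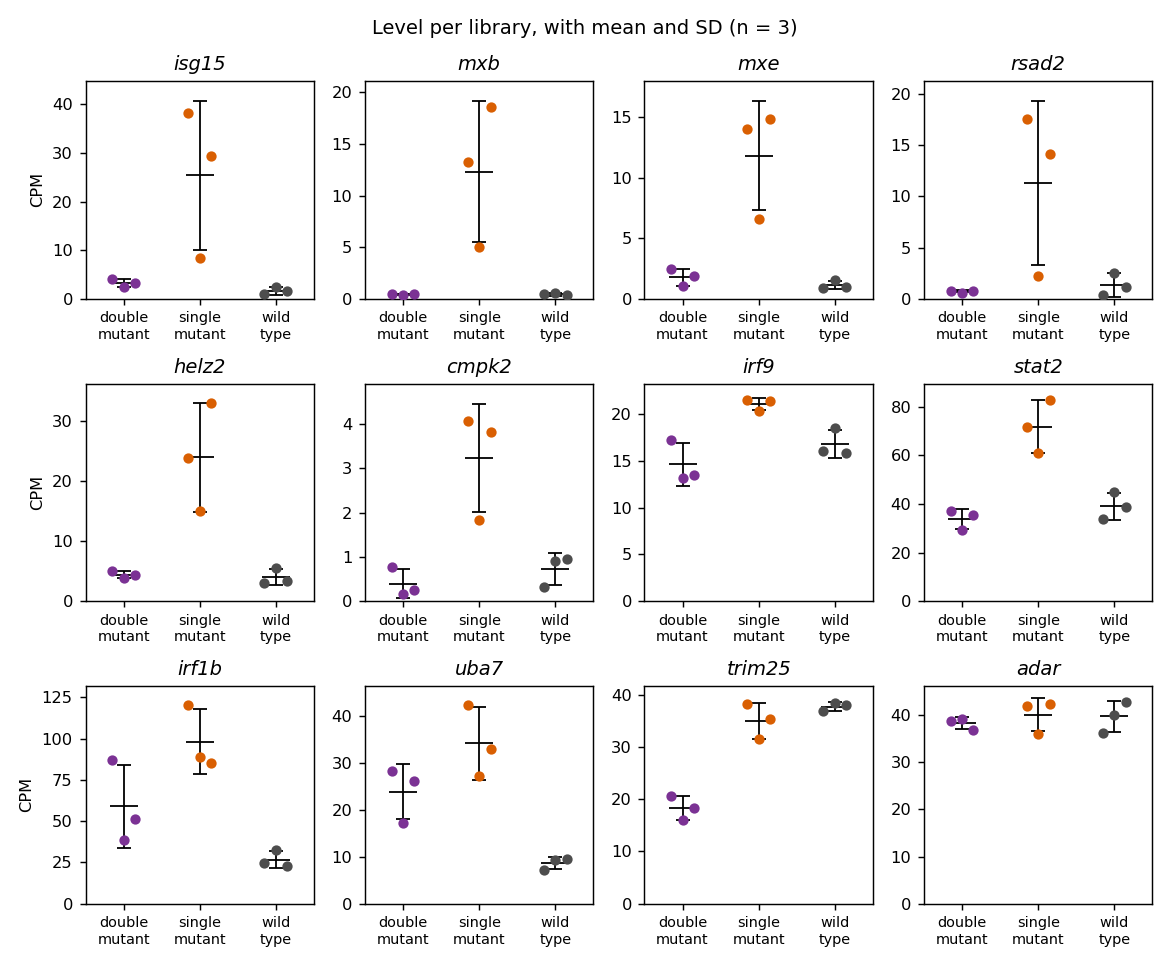
Levels of 12 members in CPM on axes that start at 0, 1 panel a gene, with a point for each library and the mean and SD of the 3 libraries of each genotype. In the panels of mxb, mxe, helz2 and cmpk2 the 3 single-mutant points stand above those of double mutants and wild type, in those of uba7 and irf1b both mutants stand above wild type, and in that of trim25 the double mutants stand below the rest.

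Socs1 is an inhibitor of the JAK kinases that interferon induces, and Ifi35 is a partner of Nmi. Socs1a rose in both mutants. It had 11.63, 8.40 and 11.7 CPM in double mutants, 15.4, 7.58 and 16.7 CPM in single mutants and 3.95, 4.32 and 4.09 CPM in wild type. Both mutants were above all wild-type libraries and overlapped each other. The log2 fold change was 1.36 in double mutants (adjusted p = 0.00375), 1.69 in single mutants (SE 0.27, adjusted p = 0.000676) and −0.33 between them (adjusted p = 0.542), and both rises were called in all 17 alternative settings.

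Ifi35 had 23.4, 15.1 and 19.2 CPM in double mutants, 23.1, 23.7 and 24.2 CPM in single mutants and 17.0, 13.9 and 14.05 CPM in wild type. Single mutants were above wild type, and double mutants overlapped both. It stood at 0.36 in double mutants (SE 0.14, adjusted p = 0.0564) and rose by 0.66 in single mutants (SE 0.14, adjusted p = 0.00129). The value in double mutants passed the test in 10 of the 17 alternative settings, among them without double-mutant replicate 2 (0.53, adjusted p = 0.00801), without wild-type replicate 1 (adjusted p = 0.0325) and without single-mutant replicate 1 (0.0437).

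Guanylate-binding proteins are GTPases known in mammals as targets of interferon gamma, and none of the 4 tested gbp genes was called in any comparison. In single mutants against wild type, 0 rose and 1 fell at an unadjusted p under 0.05 with edgeR, DESeq2 called 1 higher, and limma-voom called 0. In double mutants against wild type those counts were all 0. Between double and single mutants 2 were higher and 2 lower at an unadjusted p under 0.05, and DESeq2 and limma-voom each called 1 lower. Gbp1 had 14.7, 6.56 and 10.3 CPM in double mutants, 20.03, 17.1 and 24.8 CPM in single mutants and 14.995, 15.2 and 13.9 CPM in wild type. The single mutants were above all other libraries and double-mutant replicate 1 reached the wild-type level. On the log2 scale the change was −0.49 in double mutants (adjusted p = 0.165), 0.49 in single mutants (adjusted p = 0.132) and −0.98 between them (adjusted p = 0.0931). Without double-mutant replicate 1 all of these passed the test, at adjusted p values of 0.0122 in double mutants, 0.0215 in single mutants and 0.00695 between them, and without double-mutant replicate 2 the rise in single mutants did (0.0141).

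Gbp2 had 6.71, 4.28 and 6.07 CPM in double mutants, 11.7, 7.58 and 6.91 CPM in single mutants and 7.54, 8.90 and 6.89 CPM in wild type. Double mutants were below all other libraries. The log2 fold change was −0.45 in double mutants against wild type (adjusted p = 0.119, and 0.0323 without single-mutant replicate 1) and 0.17 in single mutants. Gbp3 had 8.55, 11.2 and 10.04 CPM in double mutants, 6.07, 8.11 and 7.14 CPM in single mutants and 10.3, 10.4 and 7.16 CPM in wild type, and gbp4 had 3.32, 2.95 and 3.29 CPM in double mutants, 2.75, 2.13 and 1.199 CPM in single mutants and 2.58, 2.72 and 2.16 CPM in wild type. For both genes the single mutants lay below all double-mutant libraries and overlapped wild type, at log2 fold changes of −0.38 and −0.29 against wild type. Without wild-type replicate 3 gbp3 stood at −0.54 (adjusted p = 0.0185), and without single-mutant replicate 1 gbp4 stood at 0.94 between double and single mutants (adjusted p = 0.0217).

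Parp12b, of the ADP-ribosyltransferase family, and lgals9l1, a galectin gene, were not called in any comparison by edgeR, DESeq2 or limma-voom, and none had an unadjusted p under 0.05. Parp12b had 7.66, 7.23 and 6.80 CPM in double mutants, 8.41, 6.87 and 6.74 CPM in single mutants and 8.75, 8.31 and 9.23 CPM in wild type. Double mutants were below all wild-type libraries, and single mutants overlapped both. Its log2 fold change was −0.28 in double mutants and −0.26 in single mutants, and the value in single mutants was −0.36 without single-mutant replicate 1 (adjusted p = 0.0432). Lgals9l1 had log2 fold changes of 0.06 in double mutants and −0.02 in single mutants, at 6.05, 6.12 and 4.92 CPM in double mutants, 5.38, 5.03 and 5.65 CPM in single mutants and 5.16, 6.82 and 4.41 CPM in wild type.

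The comparison of the mutants with each other sets larvae that lack both genes against larvae that lack fam177a1a alone. The labels give neither the line background of the mutants nor their clutches. Loss of fam177a1b and a difference of background or clutch therefore cannot be told apart. Wild-type libraries enter this comparison through the scaling, the filter on low counts and the spread estimated over all 9 libraries. Of the 34 members 12 were lower in double mutants than in single mutants and 0 were higher, where 1.0% of all genes were lower and 0.668% higher. Among the 12 were trim25, usp18, mxa, mxb, mxe, ifit8, ifit12, cmpk2, helz2, stat2 and irf9. Of these, mxb, ifit8 and cmpk2 reached the filter level in all libraries of single mutants and of no other genotype. The median log2 fold change was −0.68 over the members and 0.005 over all genes. In 19 of the 34 the double mutants lay wholly below the single mutants and in 3 wholly above. Of all 21694 tested genes, 2062 lay wholly below and 2323 wholly above. At an unadjusted p under 0.05 with edgeR, 21 were lower and 3 higher, DESeq2 called 17 lower and 0 higher, and limma-voom called 13 lower and 0 higher. The share of all genes at that unadjusted level is not given here, so the 21 and 3 cannot be set against it. Over all genes DESeq2 called 2.59% lower and 1.48% higher, and limma-voom 0.862% lower and 0.627% higher.

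All but 1 of the 12 had risen in single mutants against wild type, and the exception was trim25, which was not called in single mutants and fell in double mutants. Both comparisons use the single-mutant libraries, so their calls are not independent. The 3 members that rose in both mutants, uba7, irf1b and socs1a, were not called between the mutants, with log2 fold changes of −0.52, −0.74 and −0.33. A further 6 rose in single mutants and were called in neither other comparison, among them isg15, ifit14, rsad2, eif2ak2 and ifi35. Uncalled in all 3 comparisons were 9: mxc, ifit15, gbp1, gbp2, gbp3, gbp4, adar, parp12b and lgals9l1.

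The number of members lower in double mutants was 4 of 37 tested without double-mutant replicate 2 and 6 of 37 without double-mutant replicate 3. It was between 9 and 15, of 34 to 37 tested, without any of the other libraries. Where more than 34 were tested, ifit9, ifit10 or socs1b had entered through the single mutants, where they are high. Over all genes, the number called between the mutants was 362 with all libraries and 3860 without single-mutant replicate 1. Without that library 15 members were lower and 2 higher, where 9.39% of all genes were lower and 8.17% higher, and the 12 members called with all libraries were among the 15. Over all genes 108 and 142 were called without double-mutant replicates 2 and 3, 219 without double-mutant replicate 1, and 213 and 159 without single-mutant replicates 2 and 3. Mxa, mxe, stat2 and trim25 were lower in double mutants in all 17 alternative settings.

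**Figure D3:**
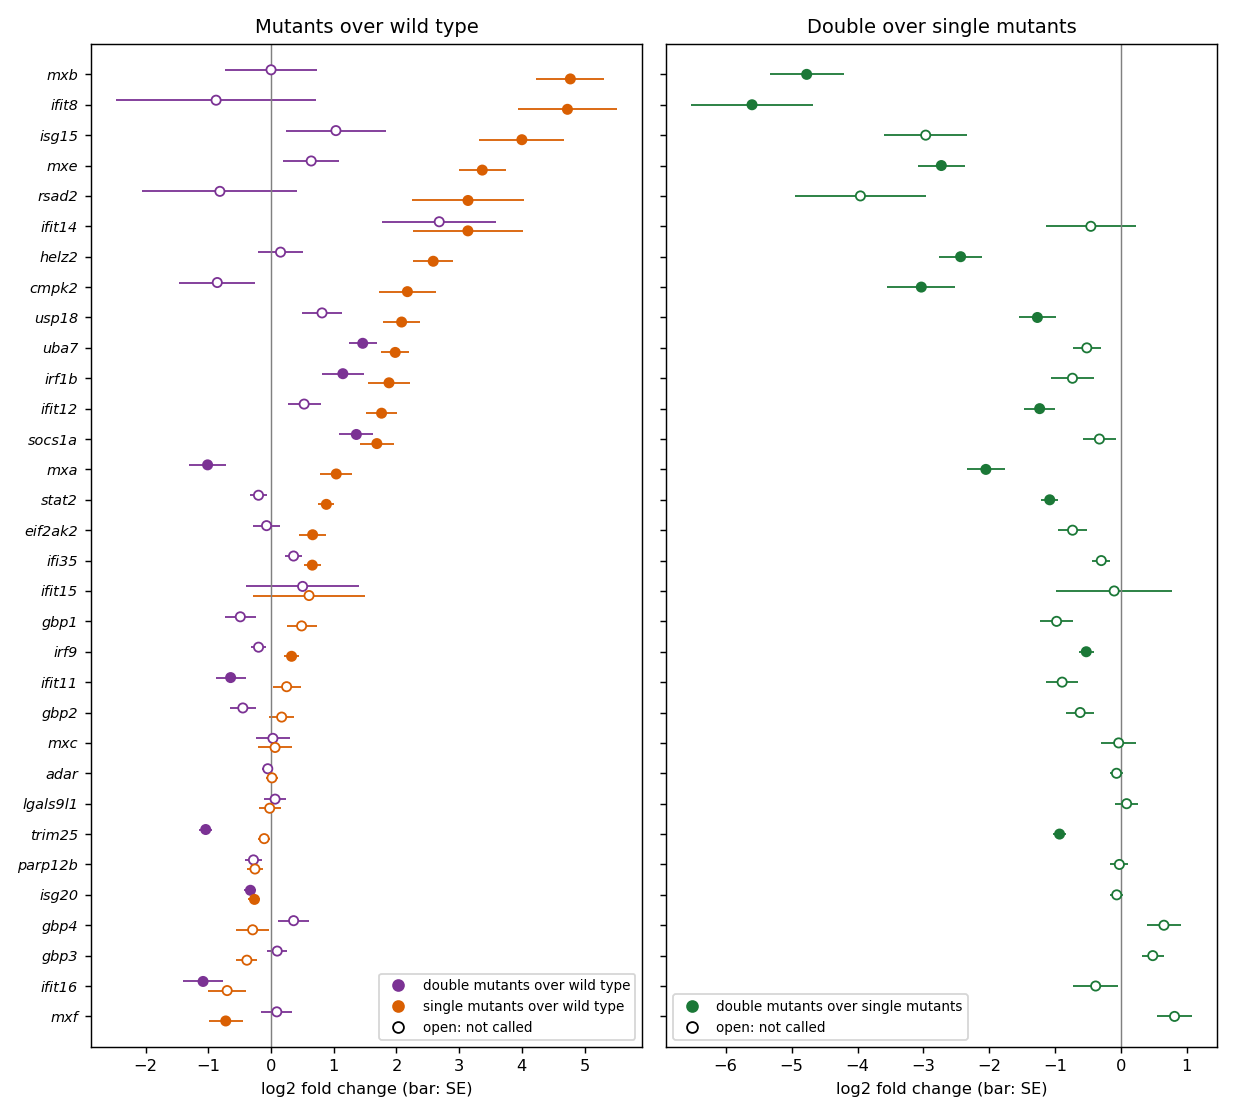
Log2 fold changes with their SE for 32 tested members, on the left for double and single mutants over wild type and on the right for double over single mutants, with filled points for adjusted p under 0.05 and open points for the rest. On the left most single-mutant points lie right of 0 and most double-mutant points near 0, and on the right 11 filled points lie left of 0, from −0.53 for irf9 to −5.60 for ifit8.

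The members below the filter are given as counts. Ifit9 had 9, 1 and 3 counts in double mutants, 36, 4 and 31 in single mutants and 0, 3 and 0 in wild type, and ifit10 had 1, 1 and 2 in double mutants, 16, 6 and 18 in single mutants and 4, 1 and 1 in wild type. For ifit9 the ratio of single mutants to wild type was 29.8 (95% counting interval 9.80 to 148) and that of double to single mutants 0.176 (0.0894 to 0.321). For ifit10 these ratios were 8.40 (3.54 to 24.2) and 0.0961 (0.02498 to 0.266). Both genes had few counts in single-mutant replicate 2, as many tested members did. Socs1b had 5, 5 and 9 counts in double mutants, 6, 13 and 21 in single mutants and 4, 5 and 7 in wild type, and mxg had 6, 0 and 6 in double mutants, 5, 4 and 6 in single mutants and 2, 1 and 1 in wild type. The ratio of single mutants to wild type was 3.15 (1.73 to 6.03) for socs1b and 4.73 (1.51 to 19.6) for mxg.

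Several members lie next to each other in the genome. By gene order in the RefSeq reference GRCz12tu, which is not the build of the counts and matched 39 of the 40 names, 15 members form 6 runs with at most 4 genes between neighbours. These are mxa with mxb, mxc with mxe, the run of ifit9 to ifit12, the run of ifit14 to ifit16, rsad2 with cmpk2, and gbp1 with gbp2. Neighbours did not always move together: mxe rose in single mutants and mxc did not pass the test, and ifit12 rose while ifit11 did not pass. In rsad2 and cmpk2 both members rose in single mutants. How reads that match several copies were counted is not given in the sources used here, so the split of counts among near-identical Mx, IFIT and GBP copies is uncertain.

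The genes that make the interferons themselves were hardly detected. Summed over the 3 libraries of a genotype, ifnphi1 had 14 counts in double mutants, 18 in single mutants and 14 in wild type, and ifnphi3 had 15, 9 and 17 in the same order. Ifng1 had 3, 1 and 6 counts, ifng1r 5, 3 and 2, ifnphi2 0, 0 and 2, and ifnphi4 0 in each, which allows up to 3 counts. None of the 6 passed the filter, so whether interferon transcripts differed was not detectable at this depth.

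Receptors and their kinases moved modestly. Of 12, all tested, 4 rose and 1 fell in double mutants (median log2 fold change 0.12), 6 rose and 1 fell in single mutants (median 0.39), and 2 were lower in double than in single mutants (median −0.18). Over all genes 14.2% rose and 18.0% fell in double mutants, 19.5% rose and 22.6% fell in single mutants, and 1.0% were lower in double than in single mutants. Tyk2, the kinase bound to a type I interferon receptor chain in mammals, stood at 35.9 ± 3.23 CPM in double mutants, 48.4 ± 3.77 CPM in single mutants and 24.7 ± 1.49 CPM in wild type (SD, n = 3 each). It rose by 0.54 in double mutants (adjusted p = 0.000499) and by 0.97 in single mutants (adjusted p = 2.00e-06), with −0.43 between the mutants (adjusted p = 0.0269). Of the receptor chains, crfb4, ifngr1l and il10rb rose in both mutants, by 0.58, 0.82 and 0.51 in double mutants and by 0.81, 0.86 and 0.76 in single mutants. Ifngr1 stood at 0.26 in double mutants and rose by 0.83 in single mutants (adjusted p = 0.0101). The chains crfb1, crfb2, crfb12 and ifngr2 were not called in any comparison. Jak1, named here after its values were seen, was the other gene called between the mutants, at −0.57 (adjusted p = 0.00404). The call of tyk2 between the mutants did not hold without single-mutant replicate 3 (adjusted p = 0.120) or double-mutant replicate 2 or 3 (0.144 and 0.140). It was also lost when only the 6 mutant libraries were fitted (adjusted p = 0.0698).

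Among the other STAT and IRF factors, 7 of 15 tested rose and 0 fell in single mutants. At an unadjusted p under 0.05, edgeR gave 1 that fell, and DESeq2 and limma-voom called 0. In double mutants 4 rose and 1 fell, and between the mutants 1 was higher and 1 lower. The shares that rose were 26.7% in double mutants and 46.7% in single mutants, beside 14.2% and 19.5% over all genes. Irf2 rose by 0.71 in double mutants and by 1.32 in single mutants, and stat3 by 0.41 and 0.49, in the same order. Stat4 was higher in double mutants, at 35.1 ± 3.04 CPM there, 23.4 ± 4.60 CPM in single mutants and 12.9 ± 1.32 CPM in wild type (SD, n = 3 each), and rose by 1.44 in double mutants and by 0.86 in single mutants. Its difference of 0.58 between the mutants (adjusted p = 0.0343) and that of irf2, −0.61 (adjusted p = 0.0376), were each lost without any 1 of the double-mutant libraries, without single-mutant replicate 2 or 3 and without wild-type replicate 1 or 2 (adjusted p from 0.0506 to 0.179). Both were lost with the replicate block (0.0527 for stat4 and 0.0544 for irf2) and with only the 6 mutant libraries (0.102 and 0.107). The value of irf2 was also lost without wild-type replicate 3 (adjusted p = 0.0656) and with limma-voom (0.0726). Irf7, the factor that amplifies interferon production and named after its values were seen, averaged 9.26 ± 2.12 CPM in double mutants, 31.2 ± 11.85 CPM in single mutants and 6.69 ± 1.96 CPM in wild type (SD, n = 3 each). Its log2 fold changes were 0.48 in double and 2.24 in single mutants against wild type (adjusted p = 0.390 and 0.00236). Between the mutants irf7 stood at −1.76 and was not called (adjusted p = 0.0691). That difference passed with DESeq2 (adjusted p = 0.000456), with limma-voom (0.0187) and without single-mutant replicate 1 or 2 (0.0482 and 0.000969).

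Sensing genes act upstream of interferon. Of 16 tested, 3 rose and 1 fell in double mutants, 8 rose and 2 fell in single mutants, and 3 were lower and 0 higher in double than in single mutants. That is 18.8% higher in double mutants and 50% in single mutants, beside 14.2% and 19.5% over all genes, and 18.8% lower between the mutants, beside 1.0%. At an unadjusted p under 0.05 edgeR gave 1 that was higher there, and DESeq2 and limma-voom called 0. Cgas, which senses DNA in the cytosol, stood at 1.93 ± 1.07 CPM in double mutants, 27.7 ± 10.3 CPM in single mutants and 1.54 ± 0.490 CPM in wild type (SD, n = 3 each). It stood at 0.32 in double mutants, rose by 4.17 in single mutants and differed by −3.85 between them (adjusted p = 0.00784, and 0.0544 without double-mutant replicate 3). Tmem173, or STING, the adaptor downstream of cGAS, stood at 0.54 in double mutants (adjusted p = 0.0966), rose by 1.77 in single mutants (adjusted p = 4.38e-05) and differed by −1.23 between them (adjusted p = 0.0132). The last was lost without double-mutant replicate 2 or 3 (adjusted p = 0.0793 and 0.0785) and with only the 6 mutant libraries (0.0809). Pkz, a kinase of the PKR kind found in fish and named after its values were seen, rose by 1.78 in single mutants. It differed by −1.84 between double and single mutants (adjusted p = 0.0163). That difference did not hold without single-mutant replicate 3 (0.0531), without double-mutant replicate 1 (0.0612) or with the replicate block (0.0524). The adaptor myd88 and the kinase tbk1 rose in both mutants, by 0.79 and 0.38 in double mutants and by 0.68 and 0.55 in single mutants.

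Other genes known to be induced by interferon, outside the 40, were counted in the same way. Of 24 tested, 4 rose and 2 fell in double mutants, 13 rose and 3 fell in single mutants, and 5 were lower and 0 higher in double than in single mutants. That is 16.7% higher in double mutants and 54.2% in single mutants, beside 14.2% and 19.5% over all genes, and 20.8% lower between the mutants, beside 1.0%. With edgeR 0 were higher at an unadjusted p under 0.05 between the mutants, and DESeq2 and limma-voom called 0. The 5 were xaf1, ifi46, parp12a, rnf213a and ifi45, of which the last 4 are named after their values were seen. Xaf1, linked to cell death, rose by 1.59 in single mutants and differed by −1.09 between the mutants (adjusted p = 0.0314). That difference did not hold without single-mutant replicate 3 (adjusted p = 0.121), without double-mutant replicates 1, 2 or 3 (0.0799, 0.145 and 0.0961) and without wild-type replicate 1 (0.0622). With the replicate block it was lost as well (adjusted p = 0.0614). Samhd1, which degrades nucleotides, fell in both mutants, at 5.86 ± 0.605 CPM in double mutants, 6.69 ± 0.365 CPM in single mutants and 15.3 ± 0.912 CPM in wild type (SD, n = 3 each). Ifitm1, which hinders viral entry, rose by 1.06 in double mutants and by 1.30 in single mutants, and apol1 by 0.69 and 1.06.

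**Figure D4:**
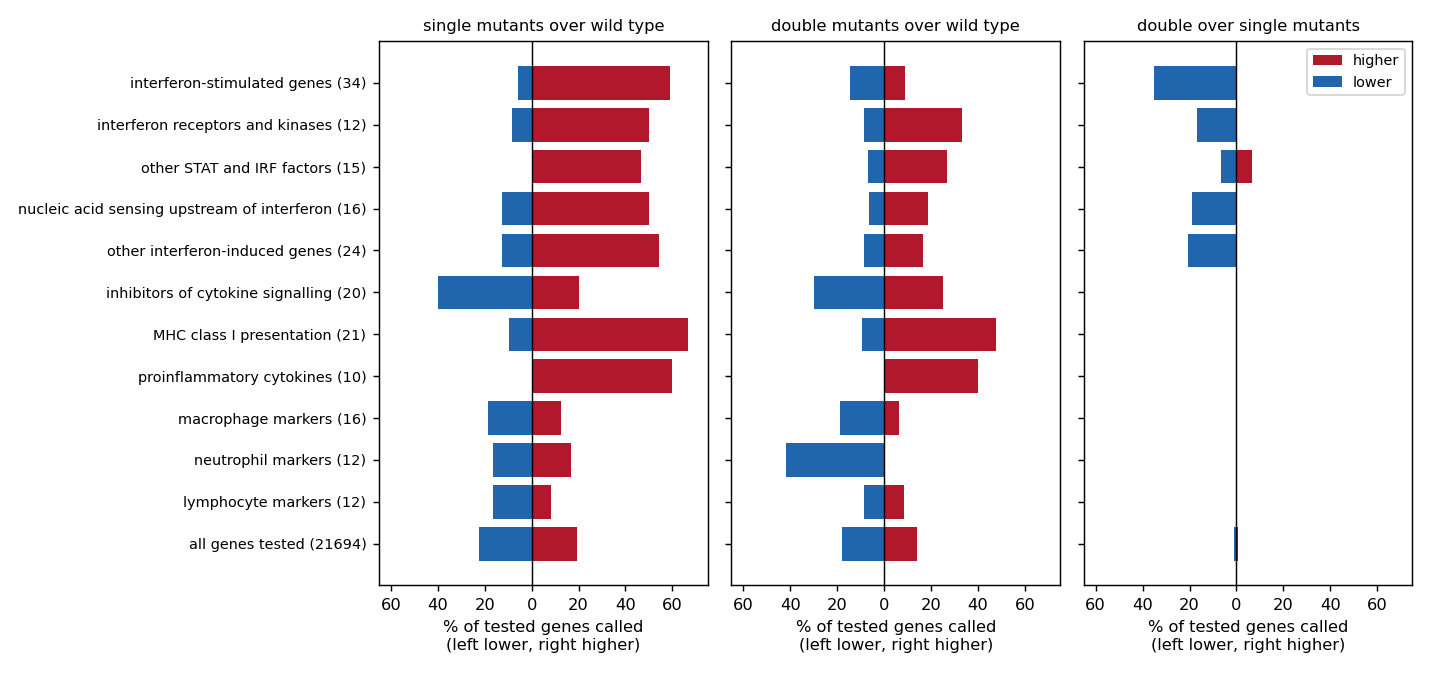
Percentage of tested genes called higher or lower in each gene list, with all genes at the bottom, in double over single mutants and in each mutant over wild type. In single mutants over wild type, the bars reach 58.8% higher for the interferon-stimulated genes and 54.2% for the other interferon-induced genes, against 19.5% over all genes.

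Markers of immune cells were set beside these values. Summed over 16 macrophage markers, of which none was at 0 in a genotype, the levels were 138 to 159.6 CPM in double mutants, 125 to 135 CPM in single mutants and 120.1 to 140.2 CPM in wild type, and mpeg1.1 was not called. The 20 lymphocyte markers summed to 79.0 to 87.5 CPM in double mutants, 71.8 to 75.9 CPM in single mutants and 74.3 to 81.1 CPM in wild type. Ighd was at 0 in every genotype, and cd8a and cd8b at 0 in double mutants, where a 0 allows up to 3 counts. The 12 neutrophil markers summed to 1984 to 2126 CPM in double mutants, 2162 to 2577 CPM in single mutants and 1927 to 1988 CPM in wild type, most of it cpa5, with none at 0. Without cpa5, a choice made after the values were seen, the sums were 127 to 139.5 CPM in double mutants, 135 to 489 CPM in single mutants and 150.0 to 169 CPM in wild type, and mmp9 alone had 19.97, 99.4 and 232 CPM in the single-mutant libraries. Of the 12 neutrophil markers, 0 rose and 5 fell in double mutants and 2 rose and 2 fell in single mutants. In double mutants 1 was higher at an unadjusted p under 0.05, and DESeq2 and limma-voom called 0 higher. Of the 16 macrophage markers, 1 rose and 3 fell in double mutants and 2 rose and 3 fell in single mutants, and of 12 tested lymphocyte markers 1 rose and 1 fell in double mutants and 1 rose and 2 fell in single mutants. Over all genes 14.2% rose and 18.0% fell in double mutants, and 19.5% rose and 22.6% fell in single mutants. Beside these, 41.7% of neutrophil markers fell in double mutants and 16.7% in single mutants, and 18.8% of macrophage markers fell in each. Among the 5, mpx, npsn and lyz, named after their values were seen, lost the call in some settings. Mpx lost it without any 1 double-mutant or wild-type library (adjusted p from 0.0676 to 0.132). Npsn lost it without double-mutant replicate 2 or 3 or any wild-type library (0.0652 to 0.180). Lyz lost it without double-mutant replicate 2 or 3 or wild-type replicate 2 (0.0516 to 0.0801). Between the mutants edgeR called none of these markers, with 3 lymphocyte and 2 macrophage markers higher and 3 neutrophil and 1 macrophage marker lower at an unadjusted p under 0.05. DESeq2 called 1 macrophage marker higher and 1 neutrophil marker lower, and limma-voom none. The macrophage and lymphocyte sums of the double mutants lay wholly above those of the single mutants, and those of the single mutants overlapped wild type. The sums weigh abundant rows most. The median log2 fold change of double over single mutants was 0.10 for macrophage and 0.26 for lymphocyte markers. In double mutants against wild type the medians were −0.18 and 0.18, in the same order. The part of these markers in the results was not tested.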

How the data were processed

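The deposited table gives raw counts per gene name beside a gene length in bases, and library totals differ. The tools named per the submitters' processing notes are cutadapt, STAR, featureCounts and DESeq2, with GRCz11. Their versions, the annotation release, the strand option and how multiply matching reads were counted were not given in the sources used here. All 9 sample columns matched a label. The columns named AB were taken as wild type.

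From the counts, edgeR 4.0.16 in R 4.3.3 kept 21694 genes (filterByExpr by genotype) with TMM factors. The robust quasi-likelihood F test used all 9 libraries in 1 fit with genotype as the only factor (6 residual degrees of freedom, common biological coefficient of variation 11.4%). Adjusted p-values are Benjamini-Hochberg over all tested genes, with calls at an adjusted p under 0.05. Counts at an unadjusted p under 0.05 are given for the members and gene lists only, without a share over all genes. SE is the log2 fold change divided by the root of F. Scripts were tested on simulated data. CPM values rest on TMM-scaled totals. For genes with few counts, ratios of summed counts have exact 95% intervals.

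The member genes, the other gene lists and the alternatives were chosen with earlier results of these data known. Values in every library are given for up to 4 members of each role with the smallest adjusted p in single mutants and for members called between the mutants; from each list up to 4 genes by the same order and every interferon ligand and receptor are named, and others are marked. Alternatives were DESeq2 1.42.0 and its size factors, limma 3.58.1 with voom, TMMwsp factors, no filter, a filter of 30 counts in 3 libraries, a replicate block, only the 6 libraries compared, and each library left out. Promoter and protein sequences were not analysed here, so that part of the plan was not run. A few genes of the lists count in the totals and are not reported here by name.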

Additional observations from a re-analysis of the deposited data

Results flagged for a closer look

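The effects of the mutations on a gene, each against wild type, were compared by the test of double against single mutants, and 11 of the members reported here differed (edgeR's quasi-likelihood test, adjusted p under 0.05 over all tested genes). Of the 34 tested members 12 were lower and 0 higher, where 1.0% of all genes were lower and 0.668% higher. The log2 fold changes of double over single mutants were −0.93 for trim25, −1.27 for usp18, −2.05 for mxa, −4.77 for mxb and −2.73 for mxe. They were −5.60 for ifit8, −1.23 for ifit12, −3.03 for cmpk2 and −2.43 for helz2, and −1.08 for stat2 and −0.53 for irf9. Of these 11, 7 lost the call in at least 1 alternative setting, and trim25, mxa, mxe and stat2 kept it in all 17. Mxb and ifit8 entered the test through the single mutants, where they are high. With 3 libraries a genotype, no library was tested as an outlier.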

How the results depend on the processing

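No member reversed direction in a called comparison under any of the 17 alternatives. Of the calls, 15 of 22 in single mutants against wild type, 3 of 8 in double mutants against wild type and 4 of 12 between the mutants were never lost. Among the 15 is ifit8, which was tested in 16 of the 17 alternatives, as it did not pass the stricter filter. Against the 2 members that fell in single mutants, 1 did with DESeq2 size factors, 0 without a filter, with the stricter filter or with DESeq2, 1 with the replicate block, 0 with the 6 libraries alone, and 0 to 3 with a library left out. Against the 3 that rose in double mutants, 5 did without a filter and 6 with DESeq2, with the replicate block or with the 6 libraries alone; leaving out a library gave 2 to 6, and 2 to 6 that fell. With a library left out, and 34 to 37 members tested, 16 to 23 rose in single mutants, and 0 to 2 were higher and 4 to 15 lower in double than in single mutants. Over all genes the calls between the mutants numbered 883 with DESeq2, 184 with the 6 libraries alone and 108 to 3860 with a library left out; those in single mutants ranged from 7327 to 10363 and those in double mutants from 5230 to 8697. The cause of these changes was not tested. The replicate block gave 18 members that rose in single mutants, 6 in double mutants and 12 lower between them. To compare replicate numbers, each genotype's mean log CPM was subtracted gene by gene, and the remaining deviations were correlated between libraries of different genotypes. In these deviations, same-numbered libraries correlated at −0.0359 to 0.0563 and differently numbered ones at −0.0630 to 0.0629. Of the 9 libraries, 3 correlated best with their own number in both other genotypes. They were the replicate 1 libraries, at 0.0370 to 0.0446 with each other. The labels do not say what the numbers mark, so they were not taken as pairs in the fit of all 9 libraries. Depth limits the interferon ligands and the 4 members below the filter. Counting intervals cover counting error only.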

Other observations

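Genes of MHC class I presentation are also known to be raised by interferon. Of 21 tested, 10 rose and 2 fell in double mutants, where 14.2% of all genes rose and 18.0% fell. In single mutants 14 rose and 2 fell, where 19.5% of all genes rose and 22.6% fell. Between the mutants edgeR called 0, with 2 higher and 7 lower at an unadjusted p under 0.05, DESeq2 called 1 higher and 2 lower, and limma-voom called 1 higher and 0 lower. Psme2, a subunit of a proteasome activator, rose by 0.57 in double mutants and by 1.0005 in single mutants, and psmb10, a subunit of the immunoproteasome, by 0.48 and 0.79. The calls in double mutants were lost without wild-type replicate 2 for both (adjusted p = 0.0509 for psme2 and 0.0551 for psmb10), without wild-type replicate 3 for psme2 (0.0524) and without double-mutant replicate 3 for psmb10 (0.0651). The class I heavy chain gene mhc1zba rose by 0.40 and 0.61 in the same order, and calr3a, a calreticulin gene, fell by 0.44 and 0.51.

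Of 10 tested proinflammatory cytokine genes, 4 rose in double mutants and 6 in single mutants, or 40% and 60%, beside 14.2% and 19.5% over all genes. The neutrophil attractants cxcl8a and cxcl8b.1 rose by 2.14 and 3.16 in double mutants and by 2.57 and 2.86 in single mutants. None was called between the mutants: with edgeR 1 was higher at an unadjusted p under 0.05, and DESeq2 and limma-voom called 0. Of 20 tested inhibitors of cytokine signalling, 5 rose and 6 fell in double mutants and 4 rose and 8 fell in single mutants. The shares that rose, 25% and 20%, stand beside 14.2% and 19.5% over all genes, and those that fell, 30% and 40%, beside 18.0% and 22.6%. Socs5b fell by 0.63 and 0.57 in the same order.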
